A study of Homo sapiens with 2 samples.

Results

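The 41 genes described here encode subunits of RNA polymerase II (12 genes) and of Mediator (29 genes). The list does not hold every Mediator subunit: MED12 and MED14 are not on it. They were taken as the models in both transcript assemblies whose RefSeq accession maps to these symbols, together with assembled models that share an exact intron with them on the same strand. They are 41 of 23303 genes named in the assemblies. Poly(A) RNA came from HCT116, a human colorectal carcinoma cell line that carries a tetracycline-inducible knockdown construct against USP49, a histone H2B deubiquitinase, and that grew under blasticidin and puromycin. One library was labelled control and 1 was labelled USP49 knockdown, with harvest 36 h after doxycycline. The treatment text is the same for both libraries, so whether the RNA control culture also received doxycycline is not given, nor is whether the line is 1 clone. With 1 library per group no difference below has a replicate check, and the intervals cover counting error only.

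RNA polymerase II transcribes the protein-coding genes of the nucleus. Its 2 largest subunits form the active site, and 5 of its smaller subunits also belong to RNA polymerases I and III. Mediator bridges DNA-bound activators and the polymerase at promoters: its head and middle modules contact the polymerase, its tail binds activators, and its kinase module, built on cyclin C and CDK8, associates reversibly with the rest. The polymerase works on chromatin whose H2B is ubiquitinated during elongation. These subunits are needed by most cells, and their genes are commonly treated as housekeeping genes.

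The value used for a gene is the density of fragments on its RefSeq exons, from assembly models of either strand, as FPKM scaled to the library's total. A log2 ratio sets the knockdown-labelled library over control, after adding 1 FPKM to both, and the interval of a ratio is the exact 95% interval of the ratio of fragment numbers. The control library held 16378311 fragments and the knockdown-labelled library 19959689. Members rested on 153 to 10151 exon fragments in control and on 188 to 11036 in the knockdown-labelled library. USP49 itself stood at 0.907 FPKM in control and 1.10 FPKM in the knockdown-labelled library (ratio 1.22, interval 0.820 to 1.78). Its sum over models was 2.88 and 1.10 FPKM, a log2 ratio of −0.88. These values do not settle the label, and directions refer to the library by its label. All 5 epithelial markers were present, at 8.67 to 329 FPKM in control and 8.81 to 296 FPKM in the knockdown-labelled library. Of 3 leukocyte markers PTPRC was at 0 and CD3E was at 0 and 0.0342 FPKM, while CD68 stood at 9.35 and 12.9 FPKM, so their summed level was 9.35 and 13.0 FPKM. Of 5 fibroblast and endothelial markers COL1A2 and CDH5 were at 0, COL3A1 and PECAM1 were below 0.1 FPKM and COL1A1 stood at 6.89 and 6.56 FPKM. Their part in the results was not tested.

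All 41 members were transcribed above 5 FPKM in both libraries, and their levels were close to each other in the 2 libraries. No member was 2-fold or more higher or lower in the knockdown-labelled library, where 0.298% of the 12082 genes measured (mean at or above 1 FPKM) were higher and 0.488% lower. At 1.2-fold none was higher, against 2.14% of all genes, and POLR2E and POLR2I were lower, against 3.81%. The interval of the ratio lay above 1 for 5 members (12.2%), CCNC, MED1, MED23, MED8 and POLR2B, against 13.0% of all genes. It lay below 1 for 6 members (14.6%), MED16, MED25, POLR2A, POLR2E, POLR2F and POLR2I, against 14.1%. Both shares were near those of all genes. The median log2 ratio was 0.0032 for the 12 polymerase genes and 0.025 for the 29 Mediator genes, beside −0.0038 for all genes, and 29 of 41 members (70.7%) lay within 0.1 of no difference, against 60.4% of all genes. These shares are not matched for level: the median in control was 30.6 FPKM for members and 13.8 FPKM for all genes. In a bulk library, fewer cells with a transcript and less of it per cell cannot be told apart.

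Polymerase genes were the more abundant group per length. Their median level was 91.5 FPKM in control and 81.3 FPKM in the knockdown-labelled library, against 25.1 and 26.1 FPKM for Mediator. The 4 highest members in both libraries were, in order, POLR2K, POLR2H, POLR2B and POLR2G, and the 4 lowest were MED19, MED9, MED27 and MED26. Among the listed Mediator genes CCNC was the highest in both libraries, at 66.9 and 72.6 FPKM. It lay above POLR2I, POLR2F, POLR2D and POLR2J. Neighbours in the order often could not be separated: in control POLR2K at 133 FPKM (127 to 139) and POLR2H at 130 FPKM (123 to 136) had overlapping intervals, as did POLR2E at 92.8 and POLR2A at 92.6 FPKM. In the knockdown-labelled library POLR2A was above POLR2E, at 82.6 FPKM (81.1 to 84.2) and 74.6 FPKM (72.4 to 76.9), intervals that do not overlap.

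**Figure D1:**
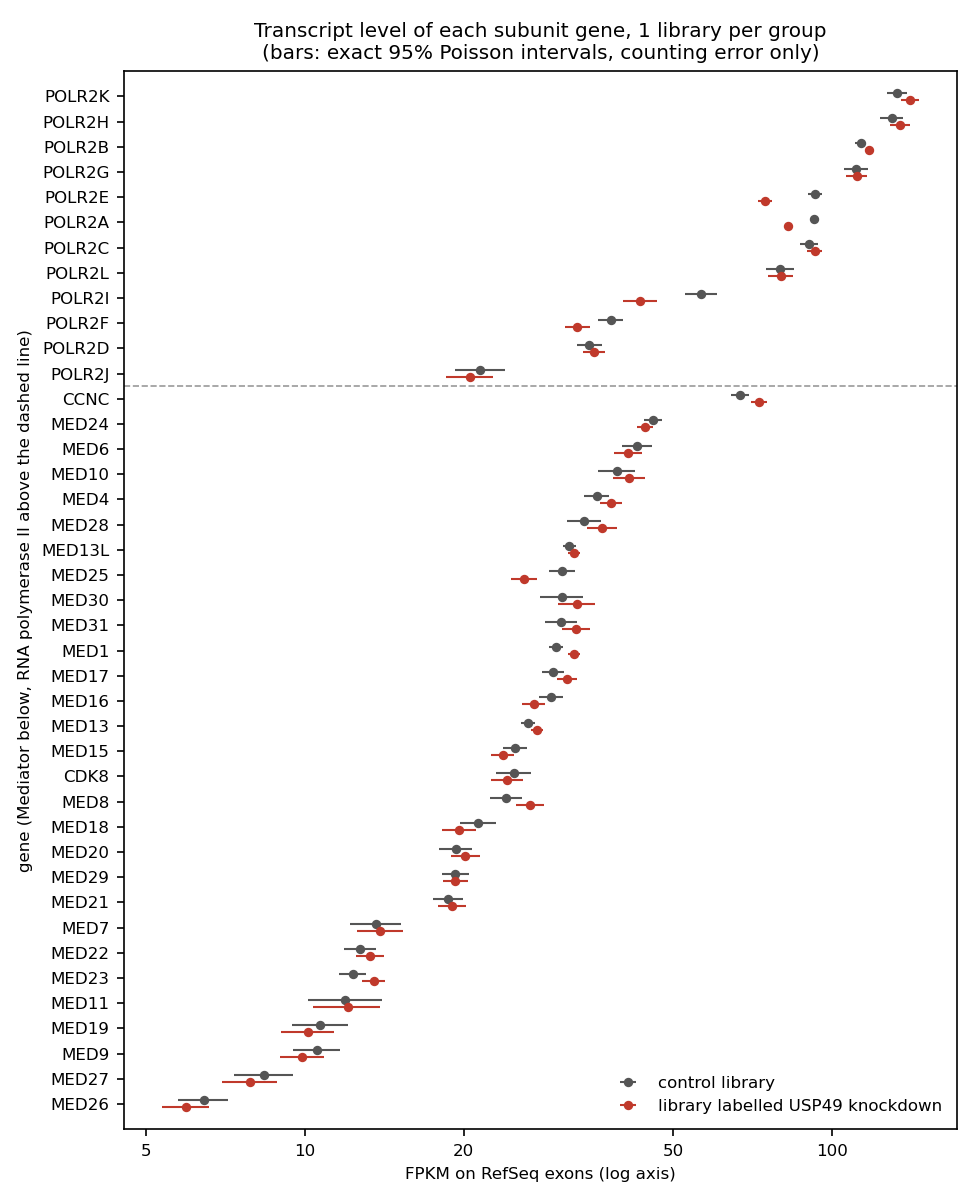
FPKM on RefSeq exons (log axis) of each subunit gene in the control library (grey) and the library labelled USP49 knockdown (red), with exact 95% Poisson intervals; Mediator genes are below the dashed line and polymerase genes above it. The levels run from 6.42 FPKM (MED26) to 133 FPKM (POLR2K) in control, and the points of the 2 libraries lie close together for most genes.

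Among the polymerase-specific subunits, POLR2A encodes the largest subunit, which carries the C-terminal repeat domain that is phosphorylated during the transcription cycle. The gene lies at chr17:7328422-7358659 (hg18, plus strand, 29 exons). It held 10151 fragments in control and 11036 in the knockdown-labelled library, or 92.6 and 82.6 FPKM, a log2 ratio of −0.16 (ratio 0.892, interval 0.868 to 0.917). POLR2B, the second largest subunit and the partner of POLR2A in the active site, ran the other way at 113 and 118 FPKM (0.05, ratio 1.04, interval 1.006 to 1.07). The log2 ratios of these partners therefore lay on opposite sides of 0, each with an interval that left out a ratio of 1. Their transcripts differed in GC content, at 55.8% for POLR2A and 40.8% for POLR2B. Relative to the median of genes of like GC content their log2 ratios were −0.10 and 0.0028.

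POLR2B also showed an upstream first exon in both libraries. An assembled model starting 1208 bases before the RefSeq start in control held 2390 fragments (37.5 FPKM), and one starting 1238 bases before it in the knockdown-labelled library held 2941 (36.9 FPKM). These were 33.6% and 32.7% of the gene's fragments as the assemblies divided them between models. Both models share most of their introns with the RefSeq model, so the shares do not measure use of the upstream first exon. The 2 assemblies ended that exon at splice donors 17 bases apart, with introns of 831 bases at chr4:57538732-57539562 in control and 848 bases at chr4:57538715-57539562 in the knockdown-labelled library (hg18). Both intron lengths occur in protein-coding POLR2B transcripts of GENCODE v29. The last 30 bases of the exon as it ends at the downstream donor, that of control, are shown from that annotation (GRCh38, chr4:56977779-56977808, plus strand), because the donor is what separates the libraries; capitals mark the 17 bases that the model of the knockdown-labelled library leaves out, which begin with the GT of its donor.
POLR2B upstream first exon: aggattgagctagGTGGGCAGAAAAGAGCA
Each library's assembly held 1 of the 2 donors, and the files hold no reads with which to count the other.

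POLR2C, a scaffold subunit of the assembly platform, stood at 90.3 and 92.7 FPKM (0.04). POLR2D and POLR2G form the stalk of the enzyme. POLR2G was level at 111 and 111 FPKM (0.0041), and POLR2D at 34.6 and 35.4 FPKM (0.03), about as far below its stalk partner in both libraries. POLR2D was read past its RefSeq end in both libraries: assembled models extended 2704 bases beyond it in control and 2814 bases in the knockdown-labelled library. They held 60.5% and 57.5% of its fragments as the assemblies divided them. These models share introns with the RefSeq model, so the shares do not measure reading past the end. They also differed between libraries in an intron outside RefSeq, of 4739 bases in control and 7080 bases in the knockdown-labelled library. POLR2J, a small assembly subunit, stood at 21.5 and 20.6 FPKM (−0.06, interval of the ratio 0.823 to 1.11); it has near-identical copies in the genome, so its value is uncertain.

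The lowest ratio of any member was that of POLR2I, a zinc-binding subunit at the edge of the active centre that lies at chr19:41296451-41298046 (hg18, minus strand). Its exons held 56.5 FPKM in control and 43.2 FPKM in the knockdown-labelled library, a log2 ratio of −0.38 (ratio 0.764, interval 0.689 to 0.848). It shares 319 exonic bases, 36.6% of its exons, with TBCB, a tubulin folding cofactor gene on the other strand. From models of its own strand alone, POLR2I stood at 35.7 and 31.3 FPKM, a log2 ratio of −0.19, no longer past 1.2-fold. The labels' protocols describe no step that marks the strand, so fragments in the shared bases cannot be assigned to either gene.

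Of the 5 subunits shared by RNA polymerases, POLR2E, which lies near the downstream DNA, had the lowest ratio. It lies at chr19:1037578-1046391 (hg18, minus strand, 8 exons) and held 92.8 FPKM in control and 74.6 FPKM in the knockdown-labelled library, a log2 ratio of −0.31 (ratio 0.804, interval 0.770 to 0.839). The models behind these values differed at the 3′ end. In control an assembled model reached 1450 bases past the RefSeq end and held 1959 fragments over 4316 bases, beside 2985 on the RefSeq model of 2866 bases. In the knockdown-labelled library an assembled model of 1212 bases, which stopped within the last exon, held 2561 fragments and the RefSeq model 1665. All of the models had the same 8 exons but for their ends. By the sum of FPKM over models POLR2E was higher in the knockdown-labelled library, at a log2 ratio of 0.59, and by fragments with no division by length it was lower, at −0.51. The sign of this gene's ratio thus depends on the gene measure.

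POLR2F, a small subunit at the base of the clamp, had 1 model in each library and stood at 38.0 and 32.9 FPKM (−0.20, ratio 0.864, interval 0.80 to 0.934). The same ratio came from the sum over models. POLR2H was at 130 and 135 FPKM (0.05) and POLR2K, the highest of all members, at 133 and 141 FPKM (0.08); both intervals of the ratio included 1. The shared subunits therefore did not lie on 1 side of 0: POLR2E and POLR2F were lower, POLR2H, POLR2K and POLR2L were not separated from a ratio of 1.

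POLR2L, a small shared subunit, gave the widest gap between gene measures. The gene has 2 exons at chr11:829721-832529 (hg18, minus strand). On its exons it stood at 79.8 FPKM in control and 79.9 FPKM in the knockdown-labelled library, a log2 ratio of 0.0024 (interval of the ratio 0.924 to 1.09). Its sum over named models was 164 and 41.4 FPKM, a log2 ratio of −1.96, the only member past 2-fold by that measure. In control 849 fragments lay on an assembled model of 429 bases at 136 FPKM, and 379 on the RefSeq model at 27.9 FPKM. In the knockdown-labelled library 685 lay on the RefSeq model at 41.4 FPKM and 826 on an assembled model of 517 bases at 88.0 FPKM, whose splice donor is 12 bases upstream of the RefSeq one. That model has an intron of 1945 bases at chr11:830481-832425 in place of 1933 bases at chr11:830481-832413 and shares only the acceptor, so the exact-intron rule leaves it out of the gene. With it counted the sum was 129 FPKM in the knockdown-labelled library and the log2 ratio −0.34. The last 30 bases of the RefSeq exon are shown because this donor decides the value (GENCODE v29, GRCh38, chr11:842414-842443, minus strand). Capitals mark the 12 bases left out with the upstream donor, which begin with its GT.
POLR2L exon 1: ggggctgctgcaggccgaGTACACCGAGGG
No POLR2L intron of 1945 bases was found in GENCODE v29.

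**Figure D2:**
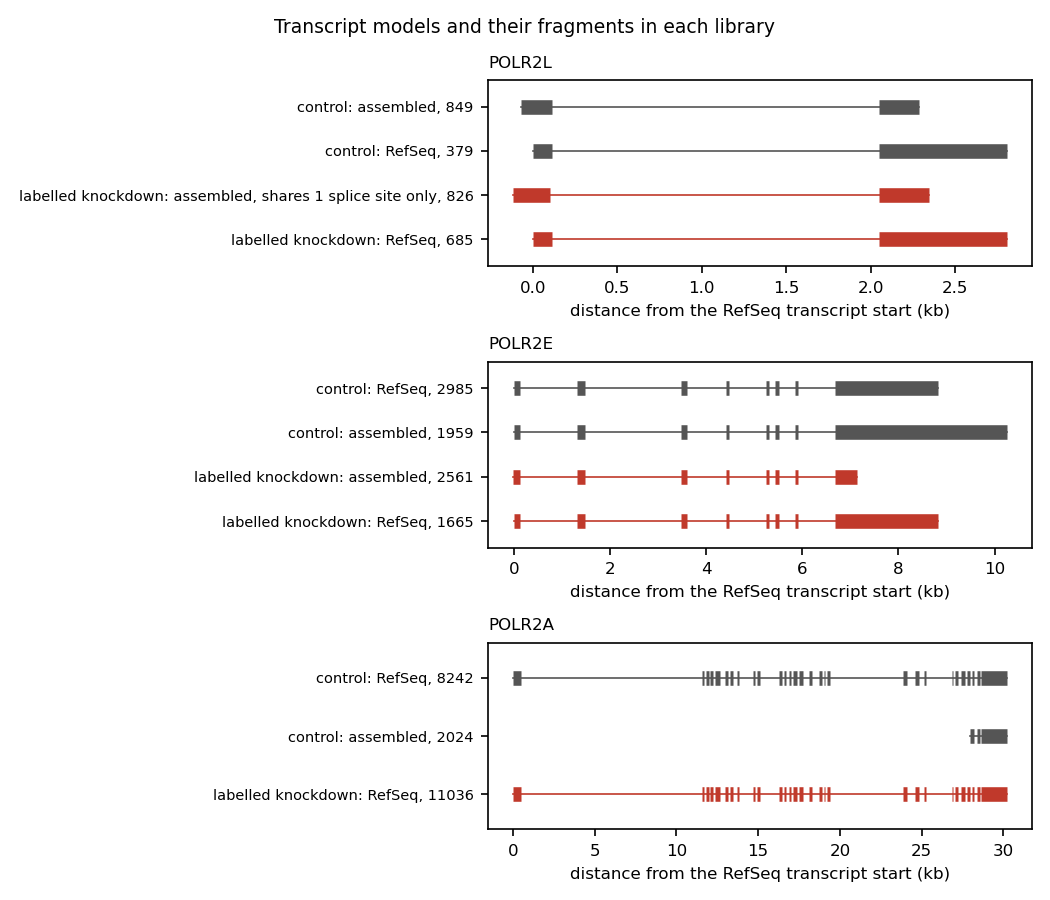
Transcript models with fragments of POLR2L, POLR2E and POLR2A in the control library (grey) and the library labelled USP49 knockdown (red), drawn by distance from the RefSeq start in kb; blocks are exons, lines are introns, and the number after each label is the model's fragments. The models of a gene differ between libraries mainly at their ends: the short POLR2L models hold 849 and 826 fragments, POLR2E has a longer assembled model in control and a shorter one in the knockdown-labelled library, and POLR2A has a model of its last 3 exons in control only.

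The Mediator head, which contacts the polymerase, had 7 members with a median log2 ratio of 0.06. MED17, the central scaffold of the head, stood at 29.5 and 31.4 FPKM (0.09, interval of the ratio 0.999 to 1.14). MED8, which joins the movable jaw to the rest of the head, had the highest ratio of all members, at 24.1 and 26.7 FPKM (0.14, ratio 1.11, interval 1.01 to 1.22). Its sum over models gave 0.43: in the knockdown-labelled library 167 fragments lay on an assembled model of 847 bases with an intron of 644 bases outside RefSeq (chr1:43623592-43624235, hg18), and control held no such model. MED18 and MED20, which form the movable jaw, were at 21.3 and 19.6 FPKM (−0.11) and at 19.3 and 20.2 FPKM (0.06). MED6 stood at 42.7 and 41.02 FPKM (−0.06), MED22 at 12.7 and 13.3 FPKM (0.06), and MED11 at 11.9 and 12.1 FPKM (0.015, interval 0.810 to 1.26, from 153 and 188 fragments). In control an assembled MED22 model of 8738 bases reached 3579 bases before the RefSeq start. It held 41.1% of the gene's fragments as the assembly divided them. The sign of the MED22 ratio turned with the gene measure: its log2 ratio was −0.04 by models of its own strand, −0.04 by the sum over models and −0.41 by fragments with no division by length.

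The 9 middle subunits had a median log2 ratio of 0.025, and 1 had an interval that left out a ratio of 1. That was MED1, the subunit bound by nuclear receptors, at 29.9 and 32.4 FPKM (0.11, ratio 1.08, interval 1.04 to 1.13). MED1 had a single RefSeq model in each library, with 3968 and 5234 fragments. MED4 stood at 35.8 and 38.0 FPKM (0.09) and MED10 at 39.0 and 41.3 FPKM (0.08). MED7 and MED21, which form the hinge of the middle module, were at 13.6 and 13.9 FPKM and at 18.7 and 19.0 FPKM (0.025 and 0.023). MED31 stood at 30.6 and 32.7 FPKM (0.09), but 1229 of its exonic bases (74.2%) are shared with TXNDC17 on the other strand; models of its own strand gave 11.9 and 13.7 FPKM (0.19). MED9, MED19 and MED26, the last known for recruiting elongation factors, were the low end of the module, at 10.5 and 9.88 FPKM, 10.7 and 10.1 FPKM, and 6.42 and 5.94 FPKM; all 3 intervals of the ratio included 1. MED19 had a log2 ratio of 0.38 by the sum over models, as its 385 fragments in the knockdown-labelled library all lay on an assembled model of 5 exons and the RefSeq model of 4 exons was listed at 0.

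The 9 tail subunits had a median log2 ratio of −0.05 by exon density, and 0.0011 by the sum over models. MED25, a target of viral and cellular activators, was the lowest of them: it lies at chr19:55013348-55032049 (hg18) and stood at 30.8 and 26.1 FPKM, a log2 ratio of −0.23 (ratio 0.848, interval 0.781 to 0.920), on 1 RefSeq model in each library. MED16 stood at 29.3 and 27.2 FPKM (−0.11, interval 0.861 to 0.997). MED23, a subunit bound by MAP kinase-driven activators, was the highest of the tail at 12.3 and 13.5 FPKM (0.12, ratio 1.09, interval 1.01 to 1.18). MED24 was at 45.7 and 44.3 FPKM (−0.05), MED15, the tail subunit known for binding SREBP and SMAD factors, at 25.1 and 23.7 FPKM (−0.08), and MED29 at 19.3 and 19.3 FPKM (0.0011). MED28 and MED30 stood at 33.8 and 36.6 FPKM (0.11) and at 30.7 and 32.8 FPKM (0.09). By fragments with no division by length the log2 ratio of MED28 was −0.22, on the other side of 0. MED27 was the lowest in level, at 8.36 and 7.87 FPKM (−0.08, interval 0.788 to 1.12). The tail therefore held members on both sides of 0, with MED25 and MED23 at its ends.

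The 4 listed genes of the kinase module, which do not include MED12, had a median log2 ratio of 0.04. CDK8, its kinase, stood at 24.9 and 24.2 FPKM (−0.04, interval 0.877 to 1.08), and CCNC, the cyclin that activates it, at 66.9 and 72.6 FPKM (0.12, ratio 1.09, interval 1.03 to 1.14). By fragments with no division by length the log2 ratio of CDK8 was −0.38. CCNC thus stood above its kinase partner in both libraries. MED13 and its paralogue MED13L, which link the kinase to the core, were at 26.5 and 27.5 FPKM (0.05) and at 31.7 and 32.4 FPKM (0.03), with intervals that included 1.

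**Figure D3:**
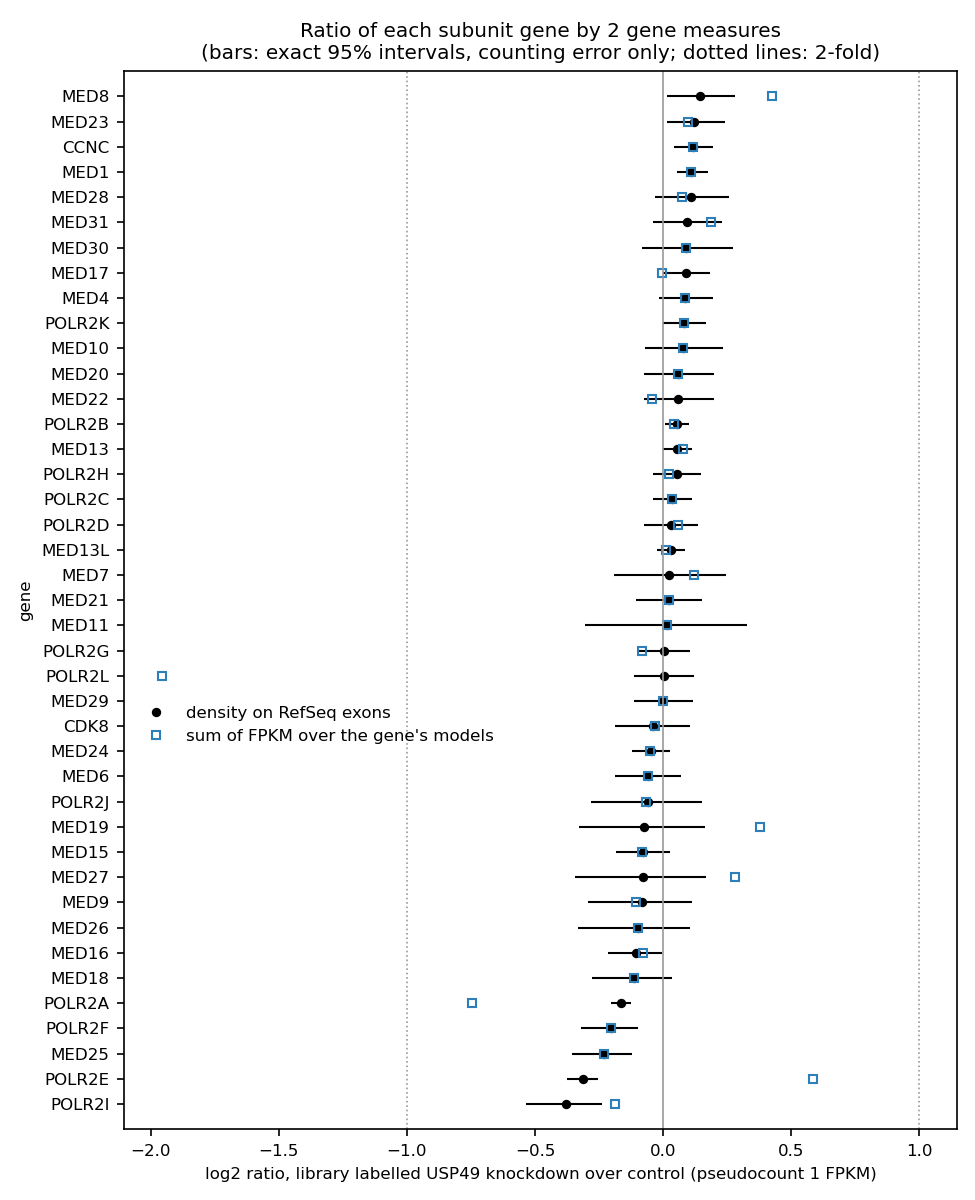
Log2 ratio of each subunit gene, library labelled USP49 knockdown over control, by density on RefSeq exons (black, bars from the exact 95% interval of the fragment ratio without a pseudocount) and by the sum of FPKM over the gene's models (blue squares). Exon ratios lie between −0.38 (POLR2I) and 0.14 (MED8), while the sums of POLR2L, POLR2A, POLR2E, MED8, MED19 and MED27 stand away from them.

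The sum over models put 1 member, POLR2L, past 2-fold lower (1.60% of all genes) and none past 2-fold higher (1.46%). At 1.2-fold it put MED19, MED27, MED8 and POLR2E higher (9.87% of all genes) and POLR2A and POLR2L lower (11.6%). For POLR2A the log2 ratio of the sum was −0.75. Control held an assembled POLR2A model of the last 3 exons, 1972 bases with 2024 fragments at 64.2 FPKM, and the knockdown-labelled library held none. The 2 measures differed by less than 0.05 in 29 members and by more than 0.3 in 5. In 20 members no assembled model was present in either library; in 7 one was present in control only, in 3 in the knockdown-labelled library only and in 11 in both. Of all genes measured, 40.97% had none, 13.2% had one in control only, 13.0% in the knockdown-labelled library only and 32.9% in both. Assembled models carried 24.3% of the members' fragments in control and 16.4% in the knockdown-labelled library, against 22.6% and 22.7% for all genes. POLR2L counts here as control only, since its model of 826 fragments in the other library is left out by the exact-intron rule.

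The ratios of the members went with the GC content of their transcripts. Across 11963 genes Spearman's rho of GC content and log2 ratio was −0.49, and across the 41 members it was −0.64. This is a description over genes that share both libraries. The median log2 ratio of all genes went from 0.08 in transcripts under 40% GC to −0.11 in those of 65% or more. The polymerase genes had a median GC content of 55.9% and the Mediator genes 46.2%. Relative to the median of genes in the same GC bin, POLR2I stood at −0.32, POLR2E at −0.25, POLR2F at −0.15 and MED18 at −0.13. By the same comparison MED25 stood at −0.12, MED6 at −0.11 and POLR2A at −0.10, while MED22 stood at 0.15 and POLR2H at 0.14. MED16, at 65.1% GC, stood at 0.0068 by that comparison, and POLR2B at 0.0028, both near the median of genes of like composition. CCNC (39.2% GC) stood at 0.04, MED1 at 0.10, MED23 at 0.07 and MED8 at 0.13. The cause of the relation with GC content was not tested.

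**Figure D4:**
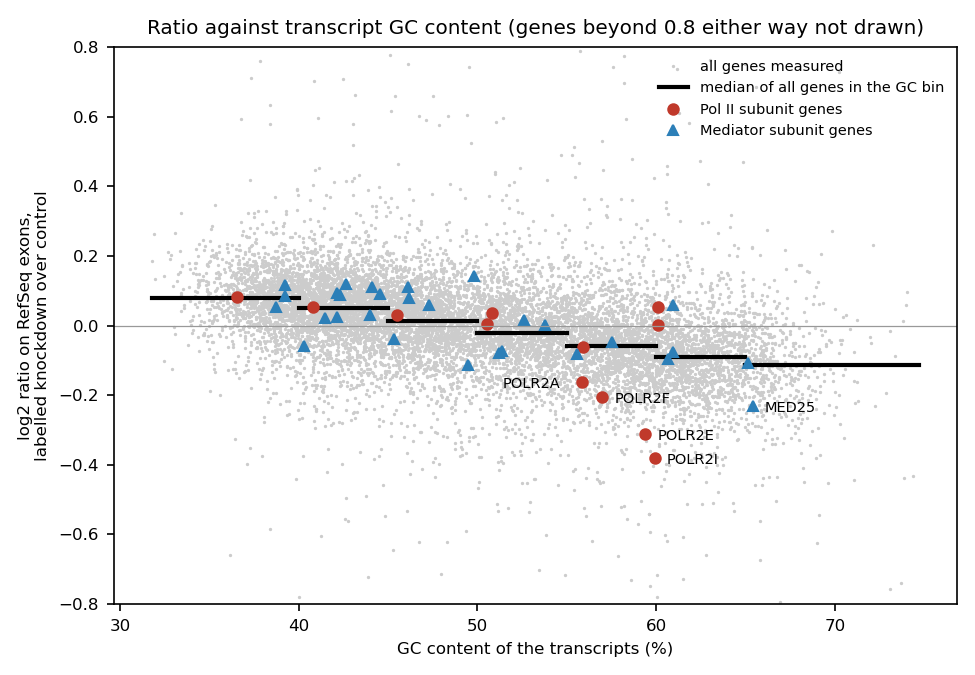
Log2 ratio on RefSeq exons against transcript GC content in percent for all genes measured (grey), polymerase genes (red circles) and Mediator genes (blue triangles); black bars are medians of all genes per GC bin. The medians go from 0.08 under 40% GC to −0.11 at 65% or more, and POLR2I and POLR2E lie farthest below them among the members.

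Alternative RefSeq forms could be compared in few members. MED15 has 2 RefSeq forms with fragments, which differ by exon 9 of 18, a 120-base exon at chr22:19259400-19259519 (hg18). The longer form stood at 8.85 FPKM in control (7.83 to 9.87, the deposited interval scaled to depth) and 10.7 FPKM in the knockdown-labelled library (9.72 to 11.7). The shorter form stood at 16.8 FPKM (15.5 to 18.1) and 13.5 FPKM (12.4 to 14.6). As the assemblies divided the fragments, the longer form made up 34.5% of the RefSeq FPKM in control and 44.3% in the knockdown-labelled library. The intervals of the shorter form do not overlap and those of the longer form do. The forms share all bases but this exon, and the files hold no reads with which to count it. The shares therefore do not measure use of the exon. The exon is shown because it is the only difference between the forms; it is a multiple of 3 in length (GENCODE v29, GRCh38, chr22:20575113-20575232, plus strand).
MED15 exon of the longer form: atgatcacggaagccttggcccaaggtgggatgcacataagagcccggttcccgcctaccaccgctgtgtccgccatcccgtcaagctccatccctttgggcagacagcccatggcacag
For MED4 the shorter of 2 forms made up 20.95% and 22.97%, again as the assemblies divided the fragments. In MED23, MED24 and MED27 one RefSeq form was listed at 0 in one library only: a MED24 form of 25 exons and 3698 bases stood at 0 and 7.90 FPKM, a MED23 form of 30 exons and 4597 bases at 0 and 2.11 FPKM, and the MED27 form of 8 exons at 3.97 and 0 FPKM. In these 3 genes the assembled models also differed between the libraries, so a form at 0 is a value of the assembly and is not set against its partner as a share.

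Introns outside RefSeq were found in the assembled models of 13 members, 25 introns in all, of which 3 were in both libraries, 8 in control only and 14 in the knockdown-labelled library only. An intron of the same length stood in GENCODE v29 for 14 of the 25, including all 3 seen in both. By models named through an exact intron, 3 of 24 (12.5%) were in both libraries, 8 in control only and 13 in the knockdown-labelled library only. Of 8358 such introns of all genes measured, 18.2% were in both, 3382 in control only and 3456 in the knockdown-labelled library only. The 3 member introns in both libraries were one of 121 bases in CDK8 (chr13:25873485-25873605), one of 1459 bases in MED24 (chr17:35443236-35444694) and one of 1312 bases in POLR2H (chr3:185567283-185568594), all hg18. The CDK8 models with this intron stood at 7.87 and 6.72 FPKM, the MED24 models at 14.5 and 8.05 FPKM and the POLR2H models at 24.5 and 16.5 FPKM.

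RefSeq introns were kept inside an exon of an assembled model in 4 members (9.76%), against 13.3% of all genes measured. Both libraries kept 1 of these 5 introns (20%), against 32.5% of 3219 for all genes. MED16 was the one member where both libraries kept the same intron, of 164 bases at chr19:819252-819415 (hg18), near its 3′ end. The model that kept it held 1170 fragments (20.5 FPKM) in control and 1335 (22.5 FPKM) in the knockdown-labelled library. These were 73.9% and 81.7% of the gene's fragments as the assemblies divided them between models. Both models share introns with the RefSeq model, so the shares do not measure how often this intron was kept. The files hold no reads with which to count it. MED17 had an intron of 86 bases kept in the knockdown-labelled library only, in a model of 8.25 FPKM. In MED23 an intron of 993 bases was kept in control only, in a model of 2.35 FPKM, and the long control model of MED22 kept 2 introns.

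Unspliced fragments inside introns were few. Assembled models that lay wholly in introns of members held 303 fragments in control and 286 in the knockdown-labelled library, a depth-scaled ratio of 0.775 (interval 0.657 to 0.913), against 0.946 (0.940 to 0.953) for all genes measured. The direction of that total rested on MED24: without it the members held 183 and 286 fragments, a ratio of 1.28 (1.06 to 1.55). In MED24 control held 120 intronic fragments on a model of 1183 bases and the knockdown-labelled library none. All 1183 of these bases lay in exons of an assembled MED24 model in the knockdown-labelled library, which held 640 fragments over 4044 bases. MED15 held 73 and 184 fragments in its introns (ratio 2.07, interval 1.57 to 2.75). The ratio of 1.28 without MED24 therefore rested in turn on this 1 gene. MED31 was at 81 and 80 fragments, and MED23 at 13 and 22 (ratio 1.39, interval 0.669 to 3.001). MED13L had 16 in control and none in the knockdown-labelled library.

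Genes that work with the polymerase were set beside these. For comparison, the interval of the ratio lay above 1 for 13.0% and below 1 for 14.1% of all genes measured. Of the general transcription factors, 26 of 31 were measured, with a median log2 ratio of 0.025; the interval of the ratio lay above 1 for 6 and below 1 for none. MNAT1, a subunit of the CDK-activating kinase of TFIIH, stood at 47.5 and 57.4 FPKM (0.27, ratio 1.21, interval 1.12 to 1.31), TAF5, of TFIID, at 10.8 and 12.5 FPKM (0.20) and TAF13 at 4.38 and 3.21 FPKM (−0.35, interval 0.448 to 1.198, from 38 and 34 fragments). The other 5 were below the minimum level. TAF6 and GTF2H4, genes that most cells use, were listed at 0 in both libraries. TAF9 stood at 0.047 and 0.068 FPKM, CDK7 at 0.042 and 0.239 FPKM and GTF2H2 at 0.561 and 0.472 FPKM. Whether such values are transcript levels or gaps in the assemblies was not tested. The subunits of RNA polymerases I and III had 18 of 19 measured, a median of 0.07, and 7 with an interval above and 1 below. POLR3B and POLR3C, of RNA polymerase III, stood at 9.06 and 10.5 FPKM and at 22.1 and 25.2 FPKM (both 0.19), and POLR3GL at 28.1 and 24.8 FPKM (−0.18).

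All 16 assembly factors and phosphatases of the C-terminal domain were measured, with a median log2 ratio of 0.019. Their intervals lay above 1 for 3 and below 1 for 2, beside 13.0% and 14.1% of all genes. RECQL5, a helicase that binds the polymerase, stood at 17.6 and 14.7 FPKM (−0.25, ratio 0.834, interval 0.776 to 0.897), RPAP2, a phosphatase of the domain, at 12.4 and 13.9 FPKM (0.16) and CTDSP2 at 16.4 and 14.8 FPKM (−0.14). The 14 subunits of Integrator, which cleaves nascent RNA, had a median of 0.06, with 4 above and 3 below. INTS13 stood at 34.6 and 40.7 FPKM (0.23), INTS5 at 24.5 and 20.9 FPKM (−0.22) and INTS1 at 50.2 and 43.4 FPKM (−0.21). INTS13 had a log2 ratio of −0.14 by the sum over models, the other direction. No measured gene of these 4 lists was 2-fold or more apart between the libraries on its exons.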

How the data were processed

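The data are 2 transcript assemblies, 1 per library, made by Cufflinks with RefSeq guidance per the file columns. The submitters' processing notes also name TopHat, Bowtie, SAMtools, Picard and bedtools and the build hg18, with no versions (not given in the sources used here). The deposited FPKM were not divided by depth by the authors: in 89.9% and 89.4% of loci with 1 RefSeq or spliced model the value equalled the fragments over 2 × (length − 47 bases), and unspliced assembled models had a larger correction. The deposited interval, read as ± 2 Poisson SD, gave whole fragment numbers (within 0.02) in 94.9% and 94.5% of loci with 1 model. Values were divided by the fragments on chromosomes 1 to 22, X and Y. Exon density assumes that a model's fragments lie evenly along it, because the assemblies hold no read positions, so it still rests on the models. Fragments were rounded for intervals. Genes needed 300 exonic bases and a mean of 1 FPKM. PCR copies are not independent molecules, so intervals cover counting error only. Depth was 16378311 and 19959689 fragments.

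With 1 library per group no test was made; differences compare these libraries, not the conditions. Members and lists were chosen with earlier results of these data known. All members are described, those at the ends in full, with 3 genes per pathway list by size of ratio. One marker gene of the planned lists is not reported here. Symbols came from RefSeq (GRCh38.p14) by accession: of 41157 accessions 39319 matched, 712 were named by the files' own symbol and 1126 stayed unnamed. GC content came from GENCODE v29 transcripts; 41 of 41 members had a value, 1 of them by symbol. The scripts were tested on simulated data (Python 3.11.15, pandas 2.3.3, SciPy 1.17.1). Alternatives were other gene measures, scalings, pseudocounts and filters.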

Additional observations from a re-analysis of the deposited data

How the results depend on the processing

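No paired analysis was possible because each group has 1 library, and no library could be left out. All 41 single ratios moved by less than their counting interval with a pseudocount of 0.1 FPKM, no filter, a minimum of 5 FPKM, TPM or centring. With models of the gene's strand only, 1 ratio moved by more and 1 member was 1.2-fold lower, POLR2E (4.46% of all genes). By the sum over models, 7 did, POLR2E reversed at 0.59, 1 member was 2-fold lower and 4 were 1.2-fold higher (1.60% and 9.87% of all genes). By fragments with no division by length, 9 did, with 1 member 2-fold lower, 1 member 1.2-fold higher and 4 members 1.2-fold lower, against 2.10%, 8.40% and 10.5% of all genes. Without division by depth, which adds the ratio of the totals to every gene, 25 members were 1.2-fold higher and 0 lower (47.5% and 1.13% of all genes), the medians were 0.29 for the polymerase, 0.30 for Mediator and 0.26 for all genes, and POLR2A (0.12), POLR2F (0.073), MED16 (0.17) and MED25 (0.045) reversed. Added after seeing the data were 4 alternatives: GC bins, no members with shared exonic bases, models sharing 1 splice site, and no MED24. Relative to genes of the same GC bin, 1 member, POLR2I, was 1.2-fold lower (2.93% of all genes) and MED16 reversed at 0.0068. Without the 8 members that share exonic bases with a named gene, 0 of 33 were 1.2-fold lower (3.79% of all genes without those 8). Counting assembled models that share 1 splice site left 0 members past 2-fold by the sum (2.99% of all genes). RefSeq models alone put 3 past it, MED19, MED27 and POLR2E (11.2% of all genes), with POLR2L at 0.55. The intronic total of the members turned from 0.775 to 1.28 without MED24, and the 1.28 rested in turn on MED15 (73 and 184 fragments). Depth limits the lowest members most: MED11 rested on 153 and 188 fragments.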
